A study of Mus musculus with 16 samples.

Results

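The 10 genes described here are Nos1, Npy, Sst, Chodl, Tacr1, Pvalb, Pthlh, Lhx6, Nkx2-1 and Elfn1. They were taken as genes of GABAergic interneurons of the striatum, and whether each is confined to these cells was not tested. All 10 were found by symbol among the 17097 genes measured. The set was chosen by the level of these transcripts in the ribosome fraction against whole lysate, known from earlier results on the same libraries, so that difference is given below as a description without a test. RNA was taken from whole striata of male C57BL/6J wild-type mice at postnatal day 63, 2 h after the animals had received vehicle or 1 mg/kg of clozapine N-oxide (CNO), a ligand of designer receptors. In each mouse, RNA was purified from cleared lysate (input) and from astrocyte ribosomes captured through a hemagglutinin tag (immunoprecipitate, IP), which gave 4 vehicle input, 4 CNO input, 4 vehicle IP and 4 CNO IP libraries, numbered 2 to 5 as in the titles. By its title the study is about Gi signalling switched on in astrocytes of the striatum. The labels used here name neither the receptor that CNO activates nor the promoter, virus or strain that carries the tag, and all 4 groups are described as wild type. A group given CNO without a receptor was not analysed here. The mouse codes in the titles were taken as animals, 8 in all, while the series text speaks of 4 mice. Should some libraries share an animal, the p-values reflect a spread that is partly technical.

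Interneurons are a minority of striatal neurons. They release GABA onto each other and onto the medium spiny projection neurons that make up most of the tissue. One class makes nitric oxide together with the peptides neuropeptide Y and somatostatin, and fires at low threshold. Another class carries the calcium-binding protein parvalbumin and fires fast. Both arise in the medial ganglionic eminence of the embryo, where the transcription factor Nkx2-1 turns on Lhx6.

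The genes differ in size and position. In GENCODE M21 on GRCm38, the assembly that mm10 names, Nos1 lies at chr5:117781032-117958840 on the plus strand and Sst at chr16:23889573-23890958 on the minus strand. Npy (chr6:49822710-49829507, plus), Tacr1 (chr6:82402334-82560104, plus) and Pthlh (chr6:147252101-147264183, minus) share chromosome 6. Chodl is at chr16:78930948-78951733 (plus), Pvalb at chr15:78191114-78206400 (minus), Lhx6 at chr2:36081953-36105408 (minus), Nkx2-1 at chr12:56531958-56536908 (minus) and Elfn1 at chr5:139907943-139974722 (plus). The 10 protein-coding genes span from 1.386 kb (Sst) to 177.809 kb (Nos1). Nos1, Lhx6, Nkx2-1 and Elfn1 overlap gene models without a proper name, on the opposite strand for Nos1, Nkx2-1 and Elfn1, and with the strand setting of the counting not given in the sources used here, reads of such models cannot be told apart from theirs.

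The start regions of Sst, Npy and Pvalb are shown because Sst and Npy were most alike over the 16 libraries and Pvalb was unlike both. That likeness was set mostly by the gap between IP and input. Each is the 120 bases before a RefSeq start on GRCm38.p6, read 5′ to 3′ on the strand of the gene, with the cAMP response element TGACGTCA or its core TGACG, searched on both strands, in capitals.
Sst, chr16:23890845-23890964, minus strand: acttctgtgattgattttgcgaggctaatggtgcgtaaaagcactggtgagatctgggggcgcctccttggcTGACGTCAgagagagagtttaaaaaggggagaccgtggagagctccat
Npy, chr6:49822590-49822709, plus strand: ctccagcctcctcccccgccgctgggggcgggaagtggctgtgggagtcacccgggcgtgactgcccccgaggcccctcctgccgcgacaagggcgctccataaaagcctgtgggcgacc
Pvalb, chr15:78206401-78206520, minus strand: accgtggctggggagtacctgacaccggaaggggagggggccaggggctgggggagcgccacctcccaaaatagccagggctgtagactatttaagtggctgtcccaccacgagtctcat
The full element stood 48 bases before the Sst start and in no other promoter of the 10 genes. Over the 250 bases before a start it was found in 1.55% of 32851 RefSeq mouse promoters. Its core TGACG, which the full element contains, was found in 17.8% of them and in those of Nos1, Sst and Tacr1. A match describes the letters of the window and is no evidence of a bound factor. The GENCODE model of Sst starts further upstream than the RefSeq model, inside the window printed. Pvalb has a further RefSeq start, whose window is not printed.

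Each value is the authors' log2 CPM, the log2 of a gene's reads scaled to the size of its library, made from 52.1 to 61.5 M reads assigned to genes in an IP library and 32.8 to 40.3 M in an input library. A higher log2 CPM by 1 is a doubling of the share of reads. In bulk RNA, fewer cells of a type and less RNA per cell cannot be told apart. As a check of the labels, every IP library was above every input library for 15 of 15 astrocyte markers (median difference 2.88 in log2 CPM in vehicle mice), and below it for 15 of 15 markers of medium spiny neurons (median -1.55) and 10 of 10 of microglia (median -4.50). Median differences were 1.92 for 9 ependymal markers, 0.78 for 11 of oligodendrocytes and -2.59 for 10 of endothelium.

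Of the 2 transcription factors, Lhx6 is needed for the migration and maturation of interneurons from the medial ganglionic eminence and stays on in the adult cell. Its log2 CPM in vehicle mice 2 to 5 was 4.30, 4.37, 4.20 and 4.01 in input and 6.04, 6.05, 5.95 and 5.99 in IP. In CNO mice it was 5.04, 4.05, 4.26 and 4.12 in input and 6.17, 6.08, 6.10 and 5.95 in IP. The IP libraries lay within a narrow band with no overlap with input, and CNO input 2 stood above the other input libraries. Nkx2-1, the factor upstream of Lhx6, was read at 0.69, 0.91, 0.63 and 0.75 in vehicle input and at 2.32, 2.73, 1.95 and 2.17 in vehicle IP. After CNO the level was 1.73, 1.18, 1.01 and 0.34 in input and 2.45, 2.59, 2.61 and 1.55 in IP. Here CNO IP 5 fell among the input libraries, below CNO input 2. The lowest input library held 56 reads of Nkx2-1, so counting error is larger for it than for Lhx6, with at least 600.

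Nos1, which encodes the neuronal nitric oxide synthase, had the widest gap between the fractions. In vehicle mice 2 to 5 its log2 CPM was 5.32, 5.08, 5.01 and 5.19 in input and 8.44, 8.28, 8.41 and 8.42 in IP. In CNO mice it was 5.83, 5.18, 5.22 and 5.20 in input and 8.39, 8.46, 8.49 and 8.51 in IP. The IP libraries differed from one another by less than the input libraries did, and CNO input 2 was again the highest input library.

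The peptide genes Sst (somatostatin) and Npy (neuropeptide Y) are expressed in the striatal class that expresses Nos1, though not necessarily in it alone. Sst was at 6.27, 6.30, 6.45 and 6.10 in vehicle input and at 8.20, 7.99, 8.32 and 8.33 in vehicle IP. After CNO the level was at 6.27, 6.20, 6.23 and 6.48 in input and at 8.10, 8.05, 8.20 and 8.50 in IP. No IP library overlapped an input library, and in the CNO group mouse 5 was highest in both fractions. Npy was at 5.82, 5.70, 5.73 and 5.60 in vehicle input, and at 7.76, 7.47, 7.77 and 7.81 in vehicle IP. In CNO mice Npy was at 5.40, 5.66, 5.71 and 5.84 in input, and at 7.66, 7.54, 7.71 and 7.94 in IP. The lowest IP library of Npy in vehicle mice was that of mouse 3, as for Sst.

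Tacr1 encodes the receptor for substance P, the peptide that direct-pathway spiny neurons make from Tac1. Its values were 3.56, 3.38, 3.07 and 3.36 in vehicle input and 6.30, 5.99, 6.14 and 6.02 in vehicle IP. In CNO mice they were 3.79, 3.50, 3.42 and 2.90 in input and 6.19, 6.23, 6.27 and 5.82 in IP. CNO mouse 5 was lowest of its group in both fractions, and no IP library came near an input library. Chodl, a surface protein gene of the nitric oxide class, was at 1.11, 1.61, 0.91 and 1.02 in vehicle input and 3.20, 3.18, 3.13 and 2.99 in vehicle IP. In CNO mice Chodl was at 1.69, 1.44, 1.38 and 0.53 in input and 3.19, 3.02, 3.07 and 2.75 in IP. Its input values rest on 64 reads in the lowest library.

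Elfn1 encodes a postsynaptic protein that recruits metabotropic glutamate receptors to synapses on interneurons. It was at 3.68, 3.74, 3.85 and 2.88 in vehicle input and at 5.19, 5.40, 5.13 and 4.70 in vehicle IP. In CNO mice it was at 4.73, 3.32, 3.24 and 3.36 in input and at 5.39, 5.01, 4.97 and 5.03 in IP. Mouse 2 of the CNO group was highest in both fractions, and vehicle mouse 5 was lowest in both. In 8 of 8 mice the IP and the input library of Elfn1 deviated from their group means to the same side. The other genes described ranged from 4 of 8 mice (Nos1) to 7 of 8 (Pvalb).

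The 2 genes of the fast-spiking class did not show the gap. Pvalb, the gene of parvalbumin, was at 5.13, 5.49, 4.60 and 4.16 in vehicle input and at 4.06, 4.66, 3.34 and 3.86 in vehicle IP. After CNO the level was at 4.79, 4.55, 4.23 and 4.18 in input and at 3.74, 3.69, 3.82 and 3.39 in IP. The IP library was the lower one in each of the 8 mice, but the vehicle groups overlapped. Pthlh encodes the parathyroid hormone-related peptide, which in striatum marks a population that includes the parvalbumin cells. It was at 2.05, 1.98, 2.11 and 1.95 in vehicle input, and at 2.00, 2.00, 1.97 and 2.18 in vehicle IP. In CNO mice it was at 1.79, 2.19, 2.78 and 1.82 in input, and at 1.79, 2.12, 2.28 and 1.29 in IP. Input and IP libraries of Pthlh overlapped in both injection groups.

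**Figure D1:**
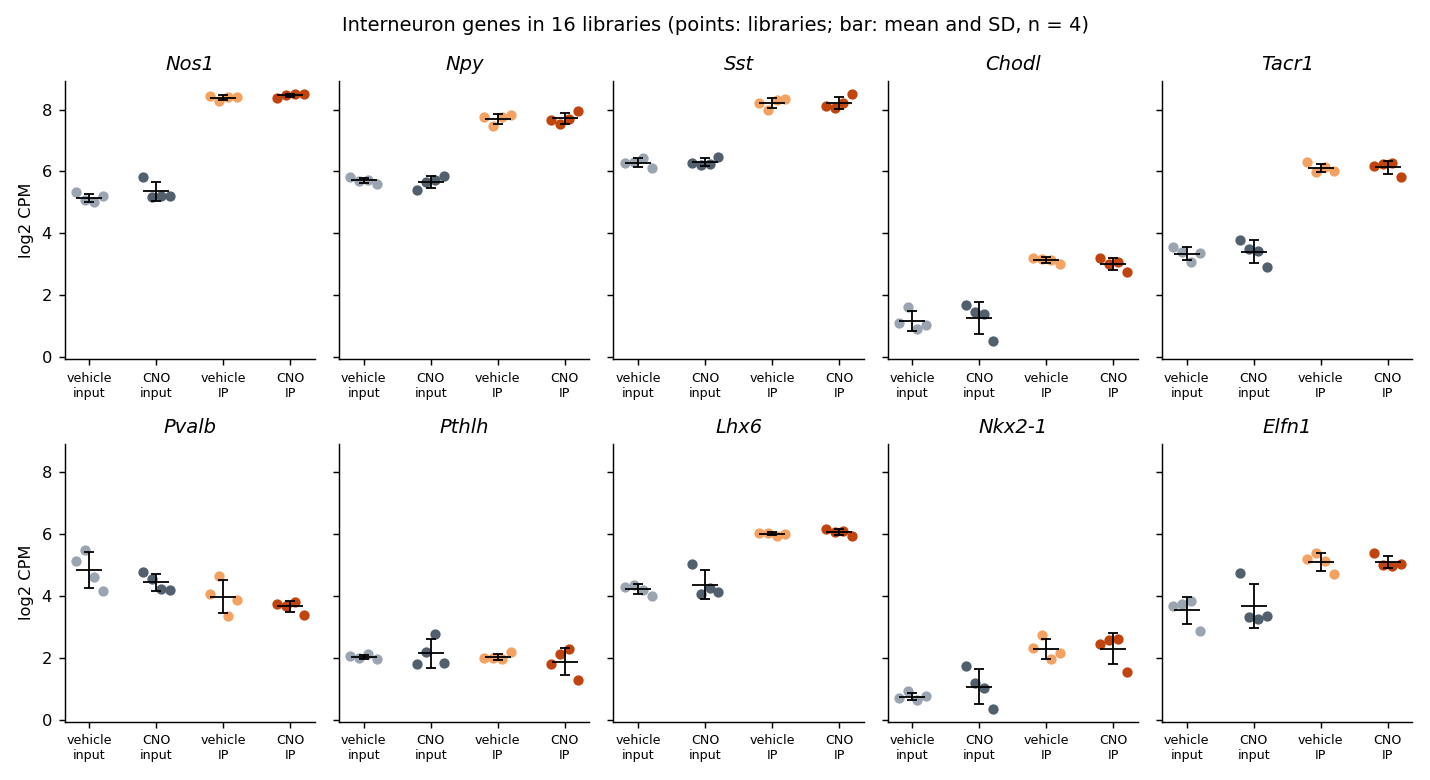
Log2 CPM of the 10 interneuron genes (vertical axis) in the vehicle input, CNO input, vehicle IP and CNO IP groups. Points are libraries in the order 2 to 5 and the bar with whiskers is the mean and SD of 4 libraries. Nos1 rises from a mean of 5.15 in vehicle input to 8.39 in vehicle IP, while Pthlh is at 2.02 and 2.04.

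The difference IP minus input within a mouse was the measure behind the choice of the set, so it gets no test. In vehicle mice it was 3.24 ± 0.11 for Nos1 (SD, n = 4 mice), a 9.43-fold higher level in IP, and 2.77 ± 0.21 for Tacr1, a 6.80-fold higher level. Npy, Chodl and Sst stood close together, at 1.99 ± 0.19, 1.96 ± 0.28 and 1.93 ± 0.23. Lhx6 (1.78 ± 0.13), Elfn1 (1.57 ± 0.23) and Nkx2-1 (1.55 ± 0.22) followed. At the deposited scaling, on which these differences depend, Pthlh was at 0.01 ± 0.16 and Pvalb at -0.86 ± 0.42. Among 16256 genes the Nos1 difference was at percentile 99.9, that of Tacr1 at 99.2, that of Sst at 94.8, that of Pthlh at 50.9 and that of Pvalb at 18.2.

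In CNO mice the order of the extremes was unchanged for Nos1 (3.11 ± 0.36), Tacr1 (2.72 ± 0.23), Pthlh (-0.27 ± 0.28) and Pvalb (-0.78 ± 0.27). Npy was at 2.06 ± 0.16, Sst at 1.92 ± 0.09, Chodl at 1.75 ± 0.33, Lhx6 at 1.70 ± 0.40, Elfn1 at 1.44 ± 0.51 and Nkx2-1 at 1.23 ± 0.38. Every IP library was above every input library for 8 of the 10 genes in vehicle mice, where 33.9% of all genes were, and for 7 in CNO mice, where 36.7% were. Every IP library was below every input library for none of the 10 in vehicle mice (34.2% of all genes) and for Pvalb in CNO mice (32.3%). The median difference of the 10 genes was 1.86 in vehicle and 1.73 in CNO mice, against -0.01 and 0.03 for all genes. With libraries scaled to their total reads the medians of the 10 were 1.59 and 1.41.

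**Figure D2:**
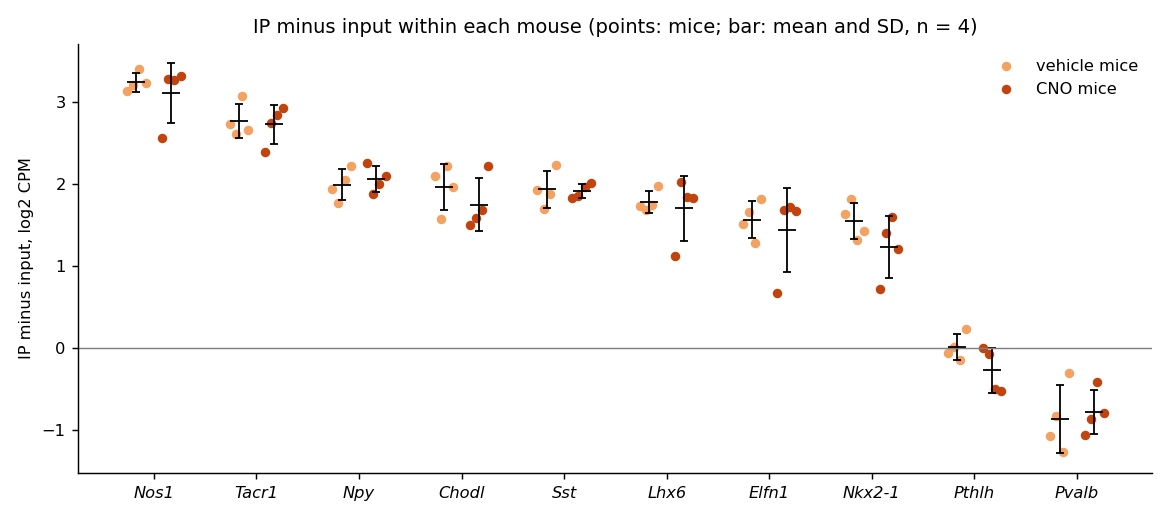
Difference in log2 CPM between the IP and the input library of a mouse for each gene (vertical axis), in vehicle mice and CNO mice. Points are mice 2 to 5 and the bar with whiskers is the mean and SD of 4 mice. In vehicle mice Nos1 stands at 3.24, Npy, Chodl and Sst between 1.93 and 1.99, and Pvalb at -0.86.

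Ratios of reads within a library do not depend on the scaling between libraries. They are not corrected for transcript length, so a ratio says nothing about which gene is more abundant, and what is read here is its shift from input to IP. The ratio of Npy to Sst was 0.677 ± 0.055 (SD, n = 4) in vehicle input and 0.703 ± 0.024 in vehicle IP. For Chodl to Sst the values were 0.0294 ± 0.0071 and 0.0297 ± 0.0048. The vehicle shift of Npy to Sst was smaller than the SD of the input libraries but not than that of the IP libraries, and that of Chodl to Sst was smaller than both. Input and IP libraries overlapped for both ratios. By contrast, Nos1 to Sst went from 0.463 ± 0.077 in input to 1.13 ± 0.083 in IP, with every IP library above every input library. Tacr1 to Sst went from 0.133 ± 0.026 to 0.235 ± 0.030. The ratio of Pvalb to Sst was 0.391 ± 0.15 in vehicle input and 0.0583 ± 0.030 in vehicle IP. That of Pthlh to Sst was 0.0524 ± 0.0033 and 0.0139 ± 0.0014. In CNO mice Npy to Sst was 0.643 ± 0.069 in input and 0.707 ± 0.024 in IP, and Nos1 to Sst was 0.534 ± 0.14 and 1.20 ± 0.13.

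Transcript length moved with the difference over all genes: Pearson r between log2 length and IP minus input was 0.20 across 14579 genes, which are not independent replicates. In the 10% of genes with the shortest transcripts, 216 to 1321 nt, the median difference in vehicle mice was -0.41. Npy (566 nt), Sst (721 nt) and Pvalb (977 nt) belong to this group, where Npy stood at percentile 96.8, Sst at 96.2 and Pvalb at 32.6. Nos1, with 10123 nt in the 10% of longest transcripts, stood at percentile 99.7 there. The part of length in these values was not tested further.

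Other interneuron genes, from a list of 32 chosen with earlier results known, had a median IP minus input of 0.53 in vehicle mice, with every IP library above input for 14 and below for 3, against 33.9% and 34.2% of all genes. The highest were Tacr3, the neurokinin B receptor (2.18 ± 0.07), Ndnf, a secreted neurotrophic factor of neurogliaform cells (1.83 ± 0.25), and Grin3a, an NMDA receptor subunit (1.70 ± 0.20). The lowest were Rbp4, a retinol carrier (-1.64 ± 0.37), the calcium-binding protein gene Calb1 (-1.20 ± 0.30), which spiny neurons express as well, and Cox6a2, a cytochrome oxidase subunit found in parvalbumin cells (-0.96 ± 0.27). The enzymes that make GABA, which spiny neurons share, are named here after their values were seen. Gad1 was at 0.02 ± 0.21 and Gad2 at -0.02 ± 0.33, with IP and input libraries overlapping.

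Transcription factors of the interneuron lineages, 20 genes, had a median of 0.66, with 10 above and 3 below (33.9% and 34.2% of all genes). Npas3 (2.56 ± 0.12), Sox6 (2.22 ± 0.12) and Gbx2 (1.74 ± 0.87) were highest. Gbx2 was low in vehicle input, at a mean log2 CPM of -1.27. Npas3 and Sox6 are also made by astrocytes or other glia. Dlx5 (-1.15 ± 0.10), Dlx6 (-1.04 ± 0.09) and Maf (-0.95 ± 0.35) were lowest. For cholinergic interneurons, another sparse class of striatal neurons, 11 of 12 markers were above and 1 below, with a median of 2.23. Tacr3 and Gbx2 count in this list too. Slc17a8, a vesicular glutamate transporter, was at 2.62 ± 0.22, Chat, which makes acetylcholine, at 2.57 ± 0.20 and Slc18a3, its vesicular carrier, at 2.48 ± 0.28. Isl1, which direct-pathway spiny neurons also express, was at -0.79 ± 0.09. The 15 pan-neuronal markers had a median of 0.04, with 5 above and 6 below, shares near those of all genes.

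Ligands, receptors and downstream proteins of the 10 genes formed a list of 20 measured genes, and 12 of them were below input in every vehicle IP library and 2 above, against 34.2% and 33.9% of all genes. Tac1, whose product is the ligand of the Tacr1 receptor, was at -2.43 ± 0.14. Npy1r (-1.39 ± 0.13) and Npy5r (-1.37 ± 0.26), receptors of neuropeptide Y, were also low. The highest were another neuropeptide Y receptor, Npy2r (1.25 ± 0.34), the receptor of the Pthlh peptide, Pth1r (0.59 ± 0.18), and the somatostatin receptor Sstr1 (0.26 ± 0.22). The median of the list was -0.64.

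CNO and vehicle libraries were compared next, a contrast that was not used to choose the genes. In IP, 0 of the 10 genes passed the limma test at an adjusted p of 0.05, where 2703 of 15602 genes did (17.3%). By the same test 0 of the 10 had an unadjusted p under 0.05, where 4621 of the 15602 genes did. The log2 fold change, CNO minus vehicle, was 0.07 for Nos1 (SE 0.05, 95% interval -0.04 to 0.19), with an adjusted p of 0.397 by limma, the lowest of the 10, between group means of 8.39 and 8.46. Lhx6 was at 0.07 (SE 0.05, interval -0.05 to 0.19), and Chodl at -0.11 (SE 0.10, interval -0.35 to 0.12). The intervals of Sst (-0.25 to 0.25), Npy (-0.22 to 0.23) and Tacr1 (-0.23 to 0.26) left room for changes of that size in either direction. They were wider for Elfn1 (-0.36 to 0.34), Nkx2-1 (-0.58 to 0.59), Pthlh (-0.61 to 0.29) and Pvalb (-0.89 to 0.24), whose estimate of -0.32 (SE 0.25) was the largest in size and moved to -0.09 without vehicle IP 3 and to -0.54 without vehicle IP 4. Over 500 combinations of a gene, a comparison and an alternative setting or left-out library, the 10 genes passed in 0, and the lowest adjusted p was 0.126, for Pvalb in IP without vehicle IP 4, the library with its lowest IP value in that group.

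In input, too, 0 of the 10 genes passed, where 158 of 15825 genes did (0.998%). An unadjusted limma p under 0.05 was found for 0 of the 10 and for 1595 of the 15825 genes. Nos1 was at 0.21 (SE 0.14, interval -0.12 to 0.53), Nkx2-1 at 0.32 (SE 0.27), Lhx6 at 0.15 (SE 0.21), Elfn1 at 0.12 (SE 0.38) and Pvalb at -0.41 (SE 0.29, interval -1.09 to 0.27). Npy (-0.06, SE 0.09) and Sst (0.02, SE 0.08) had the narrowest intervals. Without CNO input 2, Nos1 was at 0.05 and Nkx2-1 at 0.10. Pvalb was at -0.19 without vehicle input 3 and at -0.64 without vehicle input 5. The median of the 10 was 0.11, and -0.01 without CNO input 2. Whether CNO acted differently in IP and in input was tested as an interaction over the 16 libraries, which passed for 0 of the 10 and for 773 of 16256 genes (4.76%). With the mouse as a block, which pairs IP and input of 1 animal, it passed for 1240 genes and again for 0 of the 10. Without the block, the interaction ranged from -0.31 for Nkx2-1 (SE 0.39) to 0.09 for Pvalb (SE 0.40). These SEs treat the IP and input libraries of a mouse as independent.

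**Figure D3:**
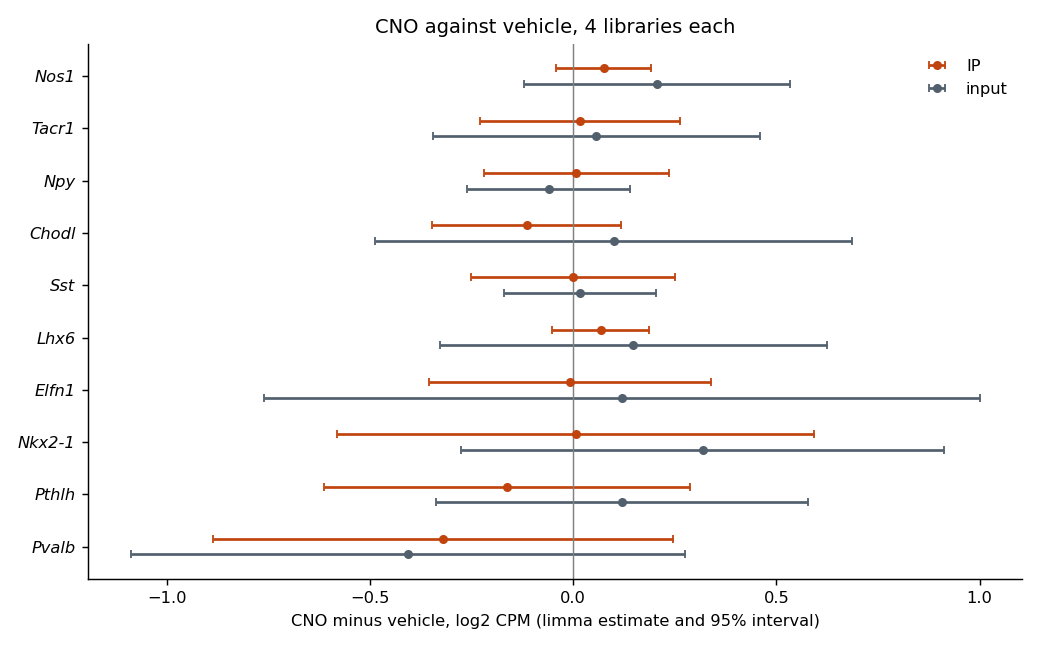
Log2 fold change of CNO over vehicle for each gene in IP and in input (horizontal axis), as limma estimates with 95% intervals from 4 libraries per group. Each interval includes 0. In IP the interval of Nos1 runs from -0.04 to 0.19 and that of Pvalb from -0.89 to 0.24.

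Genes of the related lists that passed in IP are given next, and 17.3% of all genes tested there passed. Of the 32 other interneuron genes, Trh, the gene of thyrotropin-releasing hormone, rose by 0.82 (SE 0.09, limma adjusted p = 0.00038) and 0 fell. Of the 20 ligands, receptors and downstream proteins, Grm7, a metabotropic glutamate receptor that Elfn1 binds, rose by 0.16 (SE 0.04, adjusted p = 0.027), and Pth1r fell by 0.54 (SE 0.12, adjusted p = 0.015). Grm7 no longer passed after scaling to total reads (adjusted p = 0.0942) or to the upper quartile (adjusted p = 0.140), nor in 6 of the 8 fits that left out a library. In these its adjusted p was 0.0543 without CNO IP 3, 0.057 without CNO IP 4, 0.0609 without CNO IP 2, 0.0661 without CNO IP 5, 0.0708 without vehicle IP 4 and 0.0851 without vehicle IP 2. Pth1r did not pass without vehicle IP 2 (adjusted p = 0.0507). Sstr2, a somatostatin receptor, was at 0.64 (SE 0.31) and did not pass. Of the 20 lineage factors, Nr2f1, an orphan nuclear receptor, fell by 0.54 (SE 0.12, adjusted p = 0.016). It did not pass without vehicle IP 4 (adjusted p = 0.0517). In input, 0 genes of these 3 lists passed, where 0.998% of all genes did. Pth1r was at -0.68 there (SE 0.18, adjusted p = 0.169), between means of 2.07 and 1.39, and it passed without CNO input 2 (-0.84, adjusted p = 0.0391), with adjusted p from 0.0391 to 0.43 over the alternatives. Of the cholinergic and medium spiny neuron markers, 0 of 12 and 0 of 15 passed in IP, against 17.3% of all genes. The list medians were -0.11 and -0.04.

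Within the groups the 10 genes did not deviate as 1 block. In CNO input 2, Elfn1 was 1.42 log2 units above the mean of the other 3 libraries, Lhx6 0.90, Nkx2-1 0.89, Nos1 0.62, Chodl 0.58, Tacr1 0.52 and Pvalb 0.47. Sst (-0.03), Npy (-0.34) and Pthlh (-0.48) did not share this, and the 5th to 95th percentile range of all genes in that library was -0.57 to 0.70. The cholinergic markers were 0.60 higher there in the median. In vehicle mouse 3, Pvalb was highest of its group in both fractions, at 5.49 in input and 4.66 in IP, while Sst and Npy were lowest of the group in IP.

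**Figure D4:**
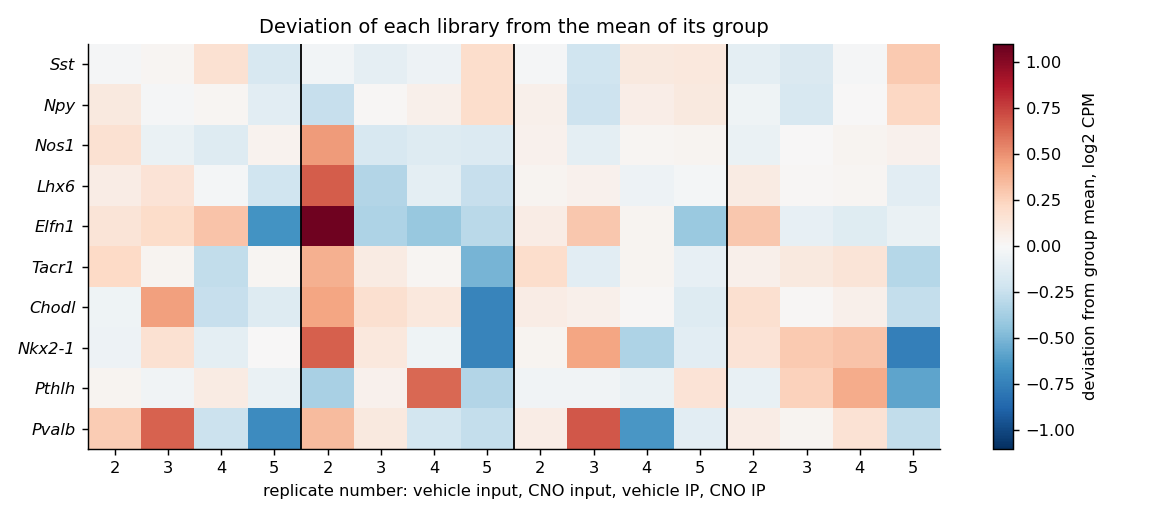
Deviation of each library's log2 CPM from the mean of its group (colour, log2 units; red above, blue below) for the 10 genes in rows and the 16 libraries in columns, numbered 2 to 5 within vehicle input, CNO input, vehicle IP and CNO IP. The largest deviation is that of Elfn1 in CNO input 2 (1.07), and in CNO IP 5 Sst (0.29) and Npy (0.23) are up while Nkx2-1 (-0.75) and Pthlh (-0.58) are down.

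Markers of excitatory neurons of the cortex, a neighbouring tissue that also contains interneurons, varied between mice. The summed level of 10 markers in IP was 518, 575, 751 and 544 CPM in vehicle mice 2 to 5 and 598, 488, 499 and 1028 CPM in CNO mice 2 to 5. In input it was 579, 683, 923 and 581 CPM in vehicle mice and 848, 599, 528 and 1024 CPM in CNO mice, and no marker was at 0 in any library. Camk2a, which spiny neurons express as well, made up most of the sum. The other 9 markers summed to 122, 157, 240 and 136 CPM in vehicle IP, to 139, 92.4, 63.5 and 444 CPM in CNO IP, to 132, 221, 415 and 136 CPM in vehicle input and to 220, 161, 65.1 and 493 CPM in CNO input. By either sum vehicle mouse 4 and CNO mouse 5 were highest of their groups in both fractions. CNO mouse 5 had the highest level in its group for 9 of the 10 markers in IP and 7 in input, and vehicle mouse 4 for 9 and 10. Slc17a7, the vesicular glutamate transporter of cortical neurons, was at 282 CPM in CNO IP 5 and at 26.6 to 74.7 CPM in the other CNO IP libraries.

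In CNO mouse 5, Sst and Npy were highest of their group in IP and in input, while Nkx2-1, Chodl, Tacr1 and Pvalb were lowest in both fractions. In vehicle mouse 4, Nkx2-1 was also lowest in both fractions, at 1.95 in IP and 0.63 in input, while Npy ranked 2nd in both fractions and Sst 2nd in IP and highest in input. Pvalb was lowest in IP of that mouse and ranked 3rd in input. Tacr1 ranked 2nd and Chodl 3rd in its IP, and both were lowest in its input. CNO mouse 2, with the 2nd highest marker sum of its group, went the other way in input. There Nkx2-1, Chodl, Tacr1 and Pvalb were highest, Npy was lowest and Sst ranked 2nd. Adult cortical interneurons of this origin are known to have shut off Nkx2-1, which striatal ones keep. In both fractions of CNO mouse 5, 0 of 12 cholinergic and 0 of 15 medium spiny markers were above their group mean. For ependymal markers it was 0 of 9, and for pan-neuronal markers 14 of 15 in IP and 13 in input. Vehicle mouse 4 differed: 3 of 12 cholinergic and 11 of 15 medium spiny markers were above their group mean in IP. So were 9 of 9 ependymal and 11 of 15 pan-neuronal markers. In input of that mouse the counts were 4, 0, 6 and 12 in the same order. The part of cortical tissue in the values of the 10 genes was not tested. Leaving out CNO IP 5 or vehicle IP 4 from the IP comparison left 0 of the 10 genes past the threshold.

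**Figure D5:**
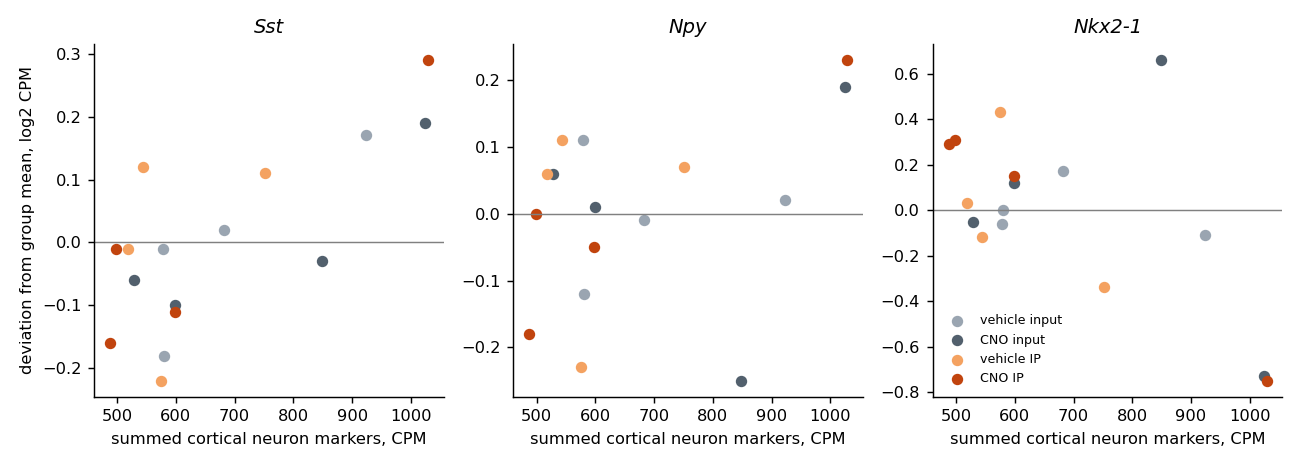
Deviation of Sst, Npy and Nkx2-1 from the group mean (vertical axes, log2 CPM, each with its own range) against the summed level of 10 cortical excitatory neuron markers (horizontal axes, CPM) in the 16 libraries, coloured by group. At the right end, the libraries of CNO mouse 5 (1028 CPM in IP, 1024 CPM in input) have Sst and Npy above and Nkx2-1 below their group means, whereas CNO input 2 (848 CPM) has Nkx2-1 above (0.66) and Npy (-0.25) and Sst (-0.03) below. Camk2a makes up most of the sum.

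Among 14153 genes with a mean of at least 1 CPM, likeness to a member was measured as Pearson r of log2 CPM over the 16 libraries, which is set mostly by the gap between IP and input and is given as a description. The gene most like Npy was Sst, and the gene most like Sst was Npy (r = 0.995). Copa and Smarca4 came next for Npy, and Hgs and Hk1 for Sst. Nos1 was nearest to Ptprz1 (0.998), a receptor phosphatase abundant in glia, to Fat1 (0.998) and to Ubr4 (0.997), and Tacr1 ranked 105th among all genes for Nos1, ahead of Sst at 474th and Npy at 679th. Pvalb was nearest to Fgf11 (0.895), Snrpn (0.877) and Hnmt (0.875).

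After the group means were taken out, so that what remained was the variation between libraries of a group, the genes nearest to Pvalb were Vkorc1l1 (r = 0.913), the heavy neurofilament gene Nefh (0.909) and Snrpn (0.883). Pum2 (0.948) and Trp53inp2 (0.940) were close to Nos1. Npy was nearest to Nfkbib (0.901), BC005624 (0.894) and Jup (0.893), and Sst to Npdc1 (0.917), Bace1 (0.913) and Synj2 (0.907). By this measure Sst ranked 78th for Npy and Npy 99th for Sst (r = 0.774). Between these peptide genes r was 0.966 over the IP libraries and 0.495 over the input libraries. The 16 libraries come from 8 mice, so the points of such a correlation share animals, and no p is given.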

How the data were processed

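RNA was sequenced from 16 libraries, 4 per group of injection and RNA type. The labels' protocols give the RNeasy Micro Plus kit for purification, and paired-end libraries built from 100 ng of mRNA-enriched RNA (Nugen Ovation RNA-Seq System V2). Bcl2fastq 2.17, STAR, HTSeq, limma and build mm10 are listed, per the submitters' processing notes. The authors deposited log2 CPM per gene and library, with a prior count of 0.25 and normalized library sizes (factors 0.880 to 1.14). Solving for these sizes gave whole reads within 0.01 read for 100% of values. A duplicate line was dropped.

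CNO and vehicle were compared on the deposited log2 values with limma (version 3.58.1, R 4.3.3, trend and robust settings), with Benjamini-Hochberg adjustment over all genes and a threshold of 0.05. A gene was tested if 4 or more libraries reached a CPM worth 10 reads in the median library and its reads summed to 15 or more. All 10 genes described passed this filter in every comparison. The script was tested on simulated data. The members and gene lists were chosen with earlier results of these data known. Of each list, the genes named are those past the threshold (at most the 4 largest changes) plus at most 2 that did not pass, or, for IP minus input, at most the 3 highest and 3 lowest, and for likeness the 3 with the highest r, and 2 genes that this rule picks are not reported here. IP and input libraries with 1 mouse code come from 1 animal and deviated together (r from 0.18 to 0.55 over genes). Alternatives were other scalings, a prior count of 2, no filter, limma-voom, a block and leaving out each library.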

Additional observations from a re-analysis of the deposited data

Results flagged for a closer look

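In 6 of the 40 groups of 4 libraries examined, the most extreme library of a gene stood apart from the other 3 by more than Dixon's 95% critical value for the gap over the range, where chance gives about 1 in 20. Values are log2 CPM. Mouse 2 of the CNO group gave 3 of them: Nos1 at 5.83 in input (the others at 5.18 to 5.22), Elfn1 at 4.73 in input (3.24 to 3.36) and Elfn1 at 5.39 in IP (4.97 to 5.03). Npy was low at 7.47 in vehicle IP 3 (7.76 to 7.81). Pthlh was high at 2.18 in vehicle IP 5 (1.97 to 2.00). Nkx2-1 was low at 1.55 in CNO IP 5 (2.45 to 2.61). The rate of 1 in 20 is for independent groups, whereas the 40 groups share libraries and mice. The count was made only for the genes described and not for all genes. Whether these genes have more outlying libraries than other genes was therefore not tested.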

How the results depend on the processing

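The 10 genes stayed short of the threshold in the CNO comparisons and the interaction under the scalings, the prior count of 2, no filter, limma-voom, the block and the left-out libraries. The count of all genes past the threshold in input became 102 when the replicate number entered as a block. For same-numbered CNO and vehicle libraries, r of the deviations ran from -0.31 to 0.18. It was not above 0.1 in every pair, so the numbers were not taken as pairs. Whether same-numbered mice were handled together cannot be told from these values. In IP the count was 1953 with this block, and Nr2f1 (adjusted p = 0.0523) and Grm7 (0.089) no longer passed. The interaction count was 1240 with the mouse as a replicate block. Leaving out 1 library gave counts of 1781 to 2958 in IP (lowest without vehicle IP 2) and 93 to 182 in input (93 without CNO input 5, 94 without vehicle input 2, 100 without vehicle input 4, 103 without CNO input 3). Of the genes called in IP, 59.2% were higher as deposited, 44.5% with total-read and 39.3% with upper-quartile scaling. With another scaling or prior count, 66 IP minus input values of genes or medians moved by at least their SD over mice and 143 did not. Another 1, larger in size than its SD, turned sign. The medians of IP minus input became 1.70 (upper quartile) and 1.59 (total reads) in vehicle mice and 1.41 (total reads) in CNO mice. Sstr1 in vehicle mice became -0.00 with total reads. Estimates near 0 turned sign in IP under total-read and upper-quartile scaling: Nkx2-1 to -0.04 and -0.05, Npy to -0.03 and -0.05, Tacr1 to -0.03 and -0.04. With 1 library left out, the IP estimates ranged from -0.14 to 0.09 for Elfn1, -0.11 to 0.26 for Nkx2-1, -0.07 to 0.07 for Npy, -0.30 to 0.03 for Pthlh, -0.54 to -0.09 for Pvalb, -0.10 to 0.05 for Sst and -0.03 to 0.12 for Tacr1. In input they ranged from -0.05 to 0.34 for Chodl, -0.24 to 0.26 for Elfn1, -0.08 to 0.25 for Lhx6, 0.10 to 0.56 for Nkx2-1, 0.05 to 0.27 for Nos1, -0.12 to 0.02 for Npy, -0.09 to 0.24 for Pthlh, -0.64 to -0.19 for Pvalb, -0.04 to 0.07 for Sst and -0.07 to 0.23 for Tacr1. Interactions ranged from -0.27 to 0.23 for Elfn1, -0.19 to 0.14 for Lhx6, -0.19 to 0.02 for Nos1, -0.02 to 0.13 for Npy, -0.13 to 0.31 for Pvalb, -0.11 to 0.04 for Sst and -0.21 to 0.09 for Tacr1. The cause of these shifts was not tested. Depth limits Chodl, Nkx2-1 and Pthlh most, with as few as 64, 56 and 124 reads in a library.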
